A study of Caenorhabditis elegans with 24 samples.

Results

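The 9 osmolyte genes described here are *tps-1*, *tps-2*, *gpdh-1*, *gpdh-2*, *hmit-1.1*, *hmit-1.2*, *hmit-1.3*, *gsy-1* and *pygl-1*, which were taken by name from the 25616 genes represented on the array and were all measured in every comparison. They make or move trehalose, glycerol, myo-inositol and glycogen. Whole-worm total RNA of early day 1 adults of *Caenorhabditis elegans* was hybridized on 24 Agilent arrays, on each of which 2 RNAs were labeled with Cy3 and Cy5. There were 4 RNAs after 6 h and again after 20 h: *pqm-1(ok485)* mutants exposed to 5 mM CoCl2, *pqm-1(ok485)* mutants at 0 mM CoCl2, N2 wild type (WT) exposed to 5 mM CoCl2, and WT at 0 mM CoCl2. PQM-1 is a zinc finger transcription factor, and cobalt chloride is a chemical that mimics low oxygen. The mutant is represented by 1 strain. Each of 4 comparisons was made on 3 arrays per time: CoCl2-treated *pqm-1* against untreated *pqm-1*, CoCl2-treated WT against untreated WT, untreated *pqm-1* against untreated WT, and CoCl2-treated *pqm-1* against CoCl2-treated WT. A comparison shares the condition in its numerator or denominator with 2 others, and whether arrays of different comparisons carried the same RNA extracts is not given in the sources used here.

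Small organic solutes balance the water content of animal cells. In *C. elegans*, glycerol is the main solute that accumulates under hypertonic stress, and *gpdh-1*, which encodes a glycerol-3-phosphate dehydrogenase of the glycerol synthesis pathway, is a widely used marker of that response. Trehalose, a disaccharide made by the trehalose-6-phosphate synthases *tps-1* and *tps-2*, protects worms from desiccation and osmotic stress. Myo-inositol enters cells through proton-coupled carriers such as the hmit proteins, and glycogen is the store from which glucose units for these solutes can be drawn.

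All values are log2 ratios of the first RNA of a comparison over the second, as the mean over 3 arrays with the standard error (SE) of the limma fit. A gene counted as differentially expressed where its p from limma, adjusted by Benjamini-Hochberg over every gene in the fit, was below 0.01. Probes above background made up 69.0% to 92.1% of an array, and replicate arrays correlated across genes with r of 0.673 to 0.962. The *pqm-1* probe gave a log2 ratio of -2.27 at 6 h and -1.46 at 20 h in untreated *pqm-1* over untreated WT, but -0.04 and 0.19 in CoCl2-treated *pqm-1* over CoCl2-treated WT (adjusted p = 0.857 and 0.360 from limma). Whether the probe lies inside the ok485 lesion is not known here. All 4 *hsp-16* genes tested rose with CoCl2 in both strains at both times. Markers of the germ line and of yolk differed between the RNAs: all 27 major sperm protein genes tested at 6 h were higher in *pqm-1* than in WT, untreated (median log2 ratio 3.34) and with CoCl2 (3.25), while 0 of 27 changed with CoCl2 within either strain at that time. At 20 h, 26 of 26 were higher in CoCl2-treated than in untreated *pqm-1* and 22 of 26 in CoCl2-treated than in untreated WT.

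The arrays held 16 probes for the 9 genes, of which 13 were bright enough to be used at 6 h and 15 at 20 h. In *pqm-1* exposed to CoCl2 for 6 h, 1 of the 9 genes was higher and 1 lower than in untreated *pqm-1*, where 10.9% of all genes tested changed (6.03% higher and 4.83% lower). In WT at 6 h, 1 was higher and 1 lower with CoCl2, against 4.25% of all genes (2.57% higher and 1.68% lower). In untreated *pqm-1* over untreated WT, 3 were higher and 0 lower at 6 h, against 13.8% (10.5% higher and 3.22% lower). In CoCl2-treated *pqm-1* over CoCl2-treated WT, 3 were higher and 3 lower, against 19.6% (14.2% higher and 5.43% lower). At 20 h, 4 were higher and 3 lower in CoCl2-treated *pqm-1*, against 35.2% of all genes (22.8% higher and 12.4% lower). In CoCl2-treated WT 2 were higher and 1 lower, against 15.9% (8.99% higher and 6.93% lower). Between the strains at 20 h, 1 was higher and 0 lower in untreated *pqm-1*, against 4.33% of all genes (3.07% higher and 1.26% lower). With CoCl2, 5 were higher and 0 lower in *pqm-1* than in WT, against 37.3% (23.7% higher and 13.6% lower). The median log2 ratio of the 9 genes lay between -0.04 and 0.25 in the 8 comparisons, where that of all genes tested lay between -0.01 and 0.01.

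**Figure D1:**
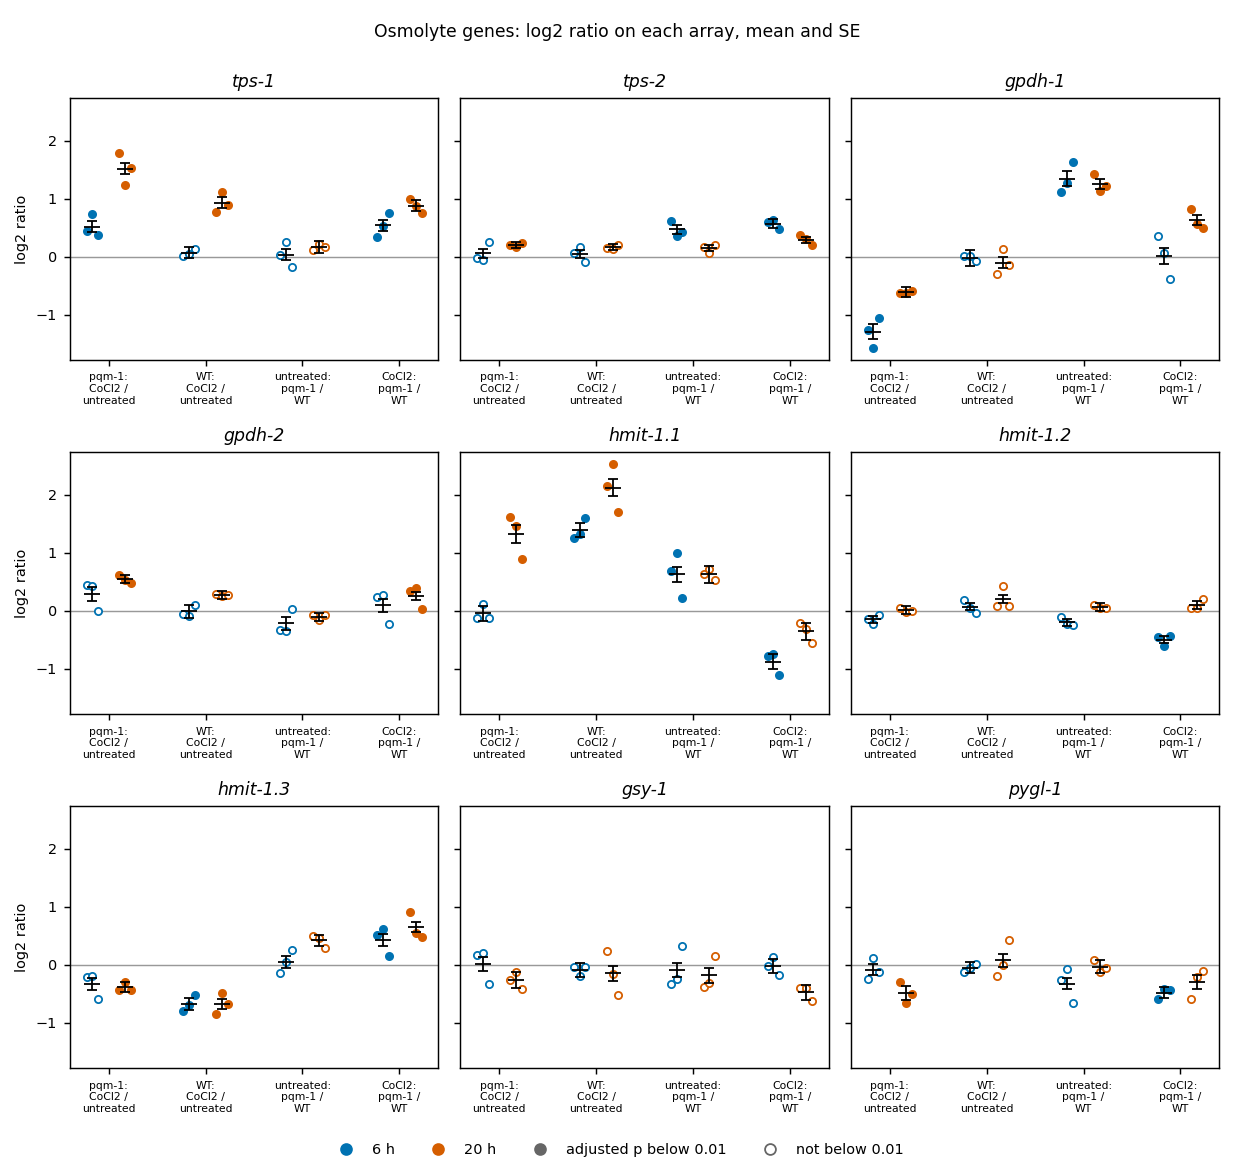
Log2 ratio of each osmolyte gene (1 panel per gene, y axis) in the 4 comparisons (x axis, numerator before denominator) after 6 h (blue) and 20 h (orange); circles are single arrays, filled where the adjusted p was below 0.01, and black bars are the mean and its SE. The *gpdh-1* arrays lay between 1.12 and 1.63 in untreated *pqm-1* over untreated WT at 6 h and between -1.57 and -1.05 in CoCl2-treated over untreated *pqm-1*, and the 3 *gsy-1* arrays straddled 0 in 5 of the 8 comparisons.

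The trehalose synthase *tps-1* was raised by CoCl2, in *pqm-1* at 6 h and in both strains at 20 h. At 6 h, the 3 arrays of CoCl2-treated over untreated *pqm-1* gave 0.44, 0.73 and 0.38, a mean of 0.52 ± 0.10 (SE, n = 3, limma adjusted p = 0.00225). The WT arrays at that time gave 0.02, 0.06 and 0.13, a mean of 0.07 ± 0.10 (adjusted p = 0.956), and did not overlap with those of *pqm-1*. The tests of a difference in response between the strains, described below, did not pass at 6 h. The CoCl2 response in *pqm-1* minus that in WT was 0.45 (limma adjusted p = 0.111). The strain ratio with CoCl2 minus that without was 0.51 (adjusted p = 0.0472). After 20 h, *tps-1* rose 2.86-fold with CoCl2 in *pqm-1*, with 1.79, 1.23 and 1.53 on the 3 arrays and a mean of 1.51 ± 0.10 (adjusted p = 1.96e-07). It rose 1.90-fold in WT, with 0.78, 1.12 and 0.89 and a mean of 0.93 ± 0.10 (adjusted p = 2.01e-05). Every *pqm-1* array again stood above every WT array. The direct comparison of the treated strains showed higher *tps-1* in *pqm-1* at both times, with 0.34, 0.53 and 0.75 at 6 h (mean 0.54, adjusted p = 0.00096) and 1.00, 0.88 and 0.76 at 20 h (mean 0.88, adjusted p = 1.68e-05). Untreated, the strains gave a mean of 0.03 at 6 h and 0.17 at 20 h (adjusted p = 0.424 at 20 h). The 6 h values are the less stable ones. Tested singly, the 3 *tps-1* probes gave 0.70 (limma adjusted p = 0.000455), 0.44 (adjusted p = 0.0141) and 0.41 (adjusted p = 0.0128) for the 6 h rise in *pqm-1*. The rise in *pqm-1* was not past the threshold without its replicate 1 (0.56, adjusted p = 0.0126) or replicate 2 (0.41, adjusted p = 0.0349). Nor was the 6 h strain difference with CoCl2 without its replicate 3 (0.43, adjusted p = 0.0122). Centering on the median ended these 6 h calls and that in WT at 20 h (0.64, adjusted p = 0.0396).

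The other trehalose synthase, *tps-2*, was higher in *pqm-1* than in WT at 6 h with or without CoCl2. Untreated *pqm-1* over untreated WT gave 0.61, 0.36 and 0.43 (mean 0.47 ± 0.08, limma adjusted p = 0.000709), and the treated strains gave 0.61, 0.63 and 0.47 (mean 0.57, adjusted p = 0.000119). CoCl2 itself gave means of 0.06 in *pqm-1* and 0.05 in WT at 6 h, and the arrays of both strains lay on either side of 0. Of the 4 *tps-2* probes, 1 was above background in 48 of 48 channel readings and the other 3 in 8, 13 and 10 of 48. At 20 h 2 of these dim probes entered the mean. It was then 0.21 in CoCl2-treated *pqm-1* (adjusted p = 0.00714), 0.16 in CoCl2-treated WT (adjusted p = 0.0444), 0.15 between the untreated strains (adjusted p = 0.142) and 0.29 between the treated strains (adjusted p = 0.000700). The bright probe alone gave 0.68 in CoCl2-treated *pqm-1* (adjusted p = 1.90e-05), 0.34 in CoCl2-treated WT (adjusted p = 0.00788), 0.41 between the untreated strains (adjusted p = 0.00584) and 1.03 between the treated strains (adjusted p = 1.45e-06). At 6 h, where the bright probe alone was used, taking in the dim probes lowered the difference to 0.15 between the untreated strains (adjusted p = 0.0272, no longer past the threshold) and to 0.18 between the treated strains (adjusted p = 0.00712). The *tps-2* values thus depended at both times on which probes were kept. Centering on the median ended every *tps-2* call. At 6 h it gave 0.41 between the untreated strains (limma adjusted p = 0.350) and 0.57 between the treated strains (adjusted p = 0.0904). At 20 h it gave 0.10 in CoCl2-treated *pqm-1* (adjusted p = 0.463) and 0.07 between the treated strains (adjusted p = 0.519). With CoCl2 at 20 h, where *tps-1* and *tps-2* were higher in *pqm-1*, the sperm gene signal was higher too. The summed signal of the 41 sperm gene probes was 1706 to 2169 in *pqm-1* and 352 to 704 in WT, in units of 1000 intensity units. Sperm genes were also higher in *pqm-1* without CoCl2, with median log2 ratios of 3.34 at 6 h and 2.35 at 20 h. In those comparisons *tps-1* gave means of 0.03 and 0.17, neither past the threshold. For *tps-2* they gave 0.47 at 6 h, past the threshold, and 0.15 at 20 h, not past it. The bright *tps-2* probe alone gave 0.41 at 20 h, past the threshold. The part of the germ line in the osmolyte genes was not tested, and in whole worms fewer cells of a type and less RNA per cell cannot be told apart.

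Among the glycerol genes, *gpdh-1* differed most between untreated worms of the 2 strains. It was 2.53-fold higher in untreated *pqm-1* than in untreated WT at 6 h, with 1.12, 1.27 and 1.63 on the 3 arrays and a mean of 1.34 ± 0.13 (SE, n = 3, limma adjusted p = 1.22e-05). At 20 h it was 2.39-fold higher, with 1.42, 1.14 and 1.21 and a mean of 1.26 ± 0.09 (adjusted p = 5.01e-06). It was the single osmolyte gene that passed the threshold between the untreated strains at that time. CoCl2 lowered *gpdh-1* in *pqm-1* by a factor of 2.44 at 6 h, with -1.25, -1.57 and -1.05 (mean -1.29 ± 0.13, adjusted p = 2.32e-05). At 20 h the fall was by a factor of 1.53, with -0.62, -0.62 and -0.60 (mean -0.61, adjusted p = 0.000106). In WT the same exposure gave 0.02, 0.01 and -0.08 at 6 h (mean -0.02) and -0.29, 0.14 and -0.15 at 20 h (mean -0.10, adjusted p = 0.464). No *pqm-1* array overlapped with a WT array at either time. With CoCl2, the strains gave 0.36, 0.06 and -0.38 at 6 h, a mean of 0.01 whose arrays straddled 0 (adjusted p = 0.962). At 20 h *gpdh-1* was 1.54-fold higher in CoCl2-treated *pqm-1* than in CoCl2-treated WT, with 0.81, 0.56 and 0.50 (mean 0.63, adjusted p = 9.23e-05). All 5 differences of *gpdh-1* past the threshold held when any 1 array was left out. The scanner's own background subtraction gave larger falls in *pqm-1*, -2.13 at 6 h and -1.13 at 20 h, and centering on the median moved the 20 h difference between the treated strains to 0.94.

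The second glycerol-3-phosphate dehydrogenase gene, *gpdh-2*, had another pattern. It rose with CoCl2 in *pqm-1* at 20 h, with 0.61, 0.54 and 0.47 on the 3 arrays (mean 0.54 ± 0.07, limma adjusted p = 4.11e-05). In WT the values were 0.29, 0.26 and 0.28, a tight group below those of *pqm-1* whose mean of 0.27 missed the threshold (adjusted p = 0.0110) but passed it without replicate 3 of the treated strains (adjusted p = 0.00254). Treated *pqm-1* over treated WT gave 0.34, 0.40 and 0.03 at 20 h (mean 0.25, adjusted p = 0.00843), a call that was lost without any 1 of the arrays of that time except replicate 3 of this comparison, and most clearly without its replicate 1 (0.21, adjusted p = 0.0738) or replicate 2 (0.18, adjusted p = 0.0885). At 6 h no comparison of *gpdh-2* passed the threshold. CoCl2-treated over untreated *pqm-1* gave 0.45, 0.43 and -0.01 (adjusted p = 0.114) and untreated *pqm-1* over untreated WT gave -0.33, -0.34 and 0.03 (adjusted p = 0.244). In each of these 6 h comparisons replicate 3, the array with the dyes the other way round, stood apart from the other 2. With a dye term in the fit the *pqm-1* response at 6 h passed (0.23, adjusted p = 0.00885), as it did for 1 of the 2 *gpdh-2* probes tested on its own (0.31, adjusted p = 0.00360) and not for the other (0.27, adjusted p = 0.510). Between the treated strains at 20 h the 2 probes disagreed, with 0.49 (adjusted p = 0.000173) and 0.02 (adjusted p = 0.917). Centering on the median instead of loess lowered the rise in *pqm-1* at 20 h to 0.16 (adjusted p = 0.580).

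The inositol carrier gene *hmit-1.1* had the largest CoCl2 response of the 9 genes in WT. In *pqm-1* the 3 arrays at 6 h gave -0.12, 0.11 and -0.13, a mean of -0.04 ± 0.13 (SE, n = 3, limma adjusted p = 0.872). In WT it rose 2.62-fold by 6 h, with 1.25, 1.32 and 1.60 and a mean of 1.39 ± 0.13 (adjusted p = 1.47e-05), and every *pqm-1* array lay more than 1 log2 unit below every WT array. After 20 h it had risen in both strains. In *pqm-1* the rise was 2.49-fold, with 1.61, 1.46 and 0.89 (mean 1.32 ± 0.15, adjusted p = 1.86e-05). In WT it was 4.35-fold, with 2.14, 2.53 and 1.69 (mean 2.12 ± 0.15, adjusted p = 8.28e-07). The arrays of the strains did not overlap at 20 h either, though the highest of *pqm-1* came close to the lowest of WT. With CoCl2, *hmit-1.1* was lower in *pqm-1* than in WT at 6 h, with -0.77, -0.74 and -1.11 (mean -0.87, adjusted p = 0.000194), and gave -0.21, -0.31 and -0.55 at 20 h (mean -0.36, adjusted p = 0.0662). Untreated, it was higher in *pqm-1* at 6 h, with 0.68, 0.99 and 0.21 (mean 0.63, adjusted p = 0.00308). The 3 arrays at 20 h gave 0.64, 0.71 and 0.53 with the same mean of 0.63, which did not pass the threshold (adjusted p = 0.0229). The untreated difference at 6 h was lost without replicate 1 (0.60, adjusted p = 0.0290) or replicate 2 (0.45, adjusted p = 0.0423). That at 20 h passed with no offset in the background correction (1.02, adjusted p = 0.00121). Centering on the median ended both 6 h strain differences (-0.77 with CoCl2, adjusted p = 0.0205, and 0.62 without, adjusted p = 0.0817).

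The related genes *hmit-1.2* and *hmit-1.3* differed from *hmit-1.1* in their WT response to CoCl2. For *hmit-1.2*, whose locus adjoins that of *hmit-1.1* by sequence name, 1 of 8 comparisons passed the threshold: CoCl2-treated *pqm-1* over CoCl2-treated WT at 6 h gave -0.45, -0.60 and -0.44 (mean -0.50 ± 0.06, limma adjusted p = 5.27e-05), and -1.50 with the scanner's own ratios. In that comparison *hmit-1.1* was lower too (-0.87). At 20 h the same comparison gave 0.05, 0.05 and 0.20 for *hmit-1.2*, all above 0 (mean 0.10). Untreated *pqm-1* over untreated WT at 6 h gave -0.11, -0.23 and -0.24 for *hmit-1.2* (mean -0.19, adjusted p = 0.0384). CoCl2 gave means of -0.15 in *pqm-1* and 0.07 in WT at 6 h, the WT value standing beside 1.39 for *hmit-1.1*. The third carrier gene, *hmit-1.3*, fell with CoCl2, where *hmit-1.1* rose. In *pqm-1* it gave -0.22, -0.18 and -0.58 at 6 h (mean -0.33, adjusted p = 0.0536) and fell at 20 h, with -0.44, -0.30 and -0.43 (mean -0.39, adjusted p = 0.00320). Its 3 WT arrays gave -0.80, -0.70 and -0.51 at 6 h (mean -0.67 ± 0.11, adjusted p = 0.00150) and -0.84, -0.49 and -0.67 at 20 h (mean -0.67 ± 0.09, adjusted p = 0.000146). Replicate 3 of *pqm-1* at 6 h was the one array of *pqm-1* that overlapped with the WT arrays of its time. Treated *pqm-1* stood above treated WT, with 0.51, 0.62 and 0.15 at 6 h (mean 0.43, adjusted p = 0.00938) and 0.90, 0.56 and 0.48 at 20 h (mean 0.65, adjusted p = 8.01e-05, and 1.05 when centered on the median). The test of whether the strains responded differently to CoCl2, described below, did not pass for *hmit-1.3*. It gave 0.37 at 6 h (limma adjusted p = 0.208) and 0.28 at 20 h (adjusted p = 0.166). Between the untreated strains *hmit-1.3* gave a mean of 0.05 at 6 h and 0.42 at 20 h (adjusted p = 0.0109), and the 20 h value passed without replicate 2 of treated WT (adjusted p = 0.00729) or replicate 1 of the treated strains (adjusted p = 0.00472). The WT fall at 6 h was lost without its replicate 1 (-0.61, adjusted p = 0.0231) or 2 (-0.66, adjusted p = 0.0190). The 6 h difference between the treated strains was lost without its replicate 1 (0.38, adjusted p = 0.0687) or 2 (0.33, adjusted p = 0.102), and without single arrays of the other 3 comparisons. The fall in *pqm-1* at 20 h was lost without replicate 1 (-0.36, adjusted p = 0.0262) or 3 (-0.37, adjusted p = 0.0210). Centering on the median ended the WT call at 6 h (-0.59, limma adjusted p = 0.721). It also ended the 6 h call between the treated strains (0.49, adjusted p = 0.346) and that in *pqm-1* at 20 h (-0.59, adjusted p = 0.0458). The WT fall at 20 h stayed past the threshold (-0.99, adjusted p = 0.00780).

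Of the glycogen genes, 1 passed in no comparison and the other in 2. For *gsy-1*, which encodes glycogen synthase, none of the 8 comparisons passed the threshold. The 3 arrays of CoCl2-treated *pqm-1* over CoCl2-treated WT at 20 h gave -0.40, -0.40 and -0.61, all below 0 (mean -0.47 ± 0.13, limma adjusted p = 0.01002). That value passed with a dye term in the fit (-0.51, adjusted p = 0.00407) or without replicate 1 or 3 of treated WT or replicate 3 of the untreated strains (-0.47, adjusted p = 0.00407 to 0.00686). At 6 h its replicates lay on both sides of 0 in every comparison except CoCl2-treated over untreated WT (-0.04, -0.19 and -0.03), as in untreated *pqm-1* over untreated WT with -0.34, -0.24 and 0.32. For *pygl-1*, which encodes glycogen phosphorylase, the enzyme that releases glucose units from glycogen, 2 comparisons passed. It was lower in CoCl2-treated *pqm-1* than in CoCl2-treated WT at 6 h, with -0.59, -0.41 and -0.44 (mean -0.48 ± 0.10, adjusted p = 0.00267). Untreated *pqm-1* over untreated WT at 6 h gave -0.26, -0.07 and -0.65, all below 0 (mean -0.33, adjusted p = 0.0322). The strain ratio with CoCl2 minus that without, a test described below, was -0.15 at 6 h and did not pass (adjusted p = 0.674). With CoCl2 in *pqm-1* at 20 h *pygl-1* fell, with -0.30, -0.66 and -0.51 (mean -0.49 ± 0.12, adjusted p = 0.00477). In WT at 20 h the *pygl-1* arrays spread from -0.19 to 0.42 around a mean of 0.08, above all 3 *pqm-1* arrays. The difference between the treated strains at 6 h was lost without any 1 of its 3 arrays (-0.42, -0.51 and -0.50 without replicates 1, 2 and 3, adjusted p = 0.0302, 0.0140 and 0.0119). The fall at 20 h was lost without replicate 2 (-0.40, adjusted p = 0.0462) or 3 (-0.48, adjusted p = 0.0245). Centering on the median ended both *pygl-1* calls (-0.42 at 6 h, adjusted p = 0.198, and -0.63 at 20 h, adjusted p = 0.0364).

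The 4 RNAs of a time were also placed on 1 scale, relative to untreated WT, by fitting the 12 arrays of that time jointly. At 6 h the *gpdh-1* level was 0.02 in CoCl2-treated *pqm-1*, 1.33 in untreated *pqm-1* and -0.0033 in CoCl2-treated WT, and at 20 h it was 0.59, 1.23 and -0.07 in the same RNAs. Untreated *pqm-1* was thus the one RNA with *gpdh-1* well above the others at 6 h, and at 20 h treated *pqm-1* lay between it and the WT RNAs. The *hmit-1.1* level at 6 h was 0.55 in CoCl2-treated *pqm-1*, 0.61 in untreated *pqm-1* and 1.40 in CoCl2-treated WT, where the SE of 0.10 to 0.12 does not separate the *pqm-1* RNAs. At 20 h the *hmit-1.1* levels were 1.85, 0.58 and 2.16 in these RNAs. For *tps-1* at 20 h, treated *pqm-1* stood highest at 1.75, followed by treated WT at 0.90 and untreated *pqm-1* at 0.20. For *hmit-1.3* at 20 h the order differed, with untreated *pqm-1* at 0.41, treated *pqm-1* at 0.01, level with untreated WT, and treated WT lowest at -0.65.

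**Figure D2:**
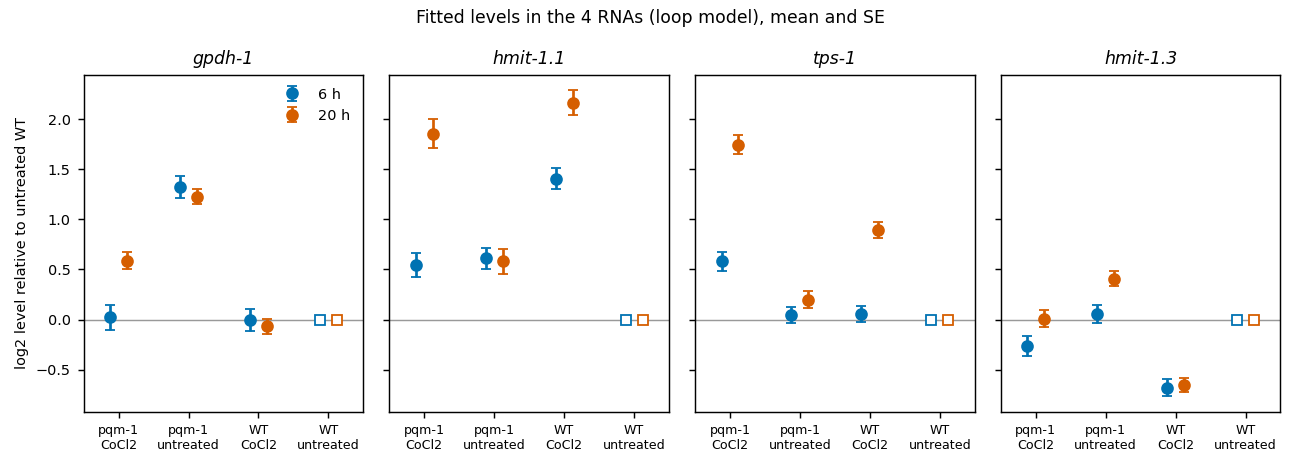
Fitted log2 level (y axis) of *gpdh-1*, *hmit-1.1*, *tps-1* and *hmit-1.3* in each RNA (x axis) relative to untreated WT, which is 0 by construction (open squares), after 6 h (blue) and 20 h (orange); bars are the SE. In untreated *pqm-1* *gpdh-1* stood at 1.33 and 1.23 at the 2 times, while *hmit-1.1* was highest in CoCl2-treated WT, at 1.40 and 2.16.

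Whether the strains responded differently was tested as a difference between 2 comparisons, with the pair used by the study at each time. At 6 h the strain ratio with CoCl2 was set against the strain ratio without it, and 2 of the 9 genes passed the threshold, both lower, against 3.03% of all genes (1.33% lower). For *gpdh-1* the difference was -1.33 ± 0.19 (SE, limma adjusted p = 0.00130): the strain ratio was 0.01 with CoCl2 and 1.34 without. For *hmit-1.1* it was -1.50 ± 0.18 (adjusted p = 0.000412), the strain ratio being -0.87 with CoCl2 and 0.63 without. The other pair of comparisons, the CoCl2 response in *pqm-1* minus that in WT, uses the other 6 arrays of the same 4 RNA conditions and gave -1.27 for *gpdh-1* (adjusted p = 0.00248) and -1.43 for *hmit-1.1* (adjusted p = 0.000774), where 1.69% of all genes passed (0.934% lower). Centering on the median instead of loess ended both calls of the first pair at 6 h (*gpdh-1* -1.22, adjusted p = 0.0569, and *hmit-1.1* -1.40, adjusted p = 0.0651). At 20 h the CoCl2 response in *pqm-1* minus that in WT passed for 0 of the 9 genes, against 8.87% of all genes. The values were 0.59 for *tps-1* (adjusted p = 0.0112), -0.51 for *gpdh-1* (adjusted p = 0.0133), -0.80 for *hmit-1.1* (adjusted p = 0.0229) and -0.56 for *pygl-1* (adjusted p = 0.0384). With 1 array left out, *tps-1* passed without replicate 2 of WT (0.68, adjusted p = 0.00649) or of *pqm-1* (0.73, adjusted p = 0.00398), *hmit-1.1* without replicate 3 of WT (-1.01, adjusted p = 0.00855) and *gpdh-1* without replicate 1 of the treated strains (-0.51, adjusted p = 0.00995). In the other pair at 20 h, the strain ratio with CoCl2 minus that without, *tps-1* (0.71, adjusted p = 0.00298), *gpdh-1* (-0.63, adjusted p = 0.00326) and *hmit-1.1* (-0.98, adjusted p = 0.00575) passed, against 14.2% of all genes. By single probe, *tps-1* gave 0.36 (limma adjusted p = 0.165), 0.87 (adjusted p = 0.00592) and 0.90 (adjusted p = 0.00235) in this other pair. The call at 20 h depended on the pair taken while the direction of *tps-1*, *gpdh-1* and *hmit-1.1* did not.

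The responses at 20 h and 6 h were compared in a fit of all 24 arrays. With CoCl2 in *pqm-1*, 3 genes passed, all with higher ratios at 20 h, against 16.0% of all genes (13.4% higher). They were *tps-1* by 1.00 (limma adjusted p = 1.79e-05), *hmit-1.1* by 1.36 (adjusted p = 4.47e-05), and *gpdh-1* by 0.68 (adjusted p = 0.00441), whose fall was smaller at 20 h. With CoCl2 in WT, *tps-1* was 0.86 higher at 20 h than at 6 h (adjusted p = 0.000278), the single osmolyte gene past the threshold, against 5.64% of all genes (3.09% higher). For *hmit-1.1* the difference in WT was 0.73 (adjusted p = 0.0266), and 0.95 without replicate 3 of the 20 h arrays (adjusted p = 0.00464). Between the untreated strains 0 of the 9 genes passed, against 0.216%, with *gpdh-1* at -0.08 ± 0.17 (adjusted p = 1.000). Between the treated strains 2 passed, both higher at 20 h, against 17.8% (11.8% higher): *gpdh-1* by 0.61 (adjusted p = 0.00844) and *hmit-1.2* by 0.60 (adjusted p = 4.32e-05). The *gpdh-1* difference in *pqm-1* was lost without replicate 1 or 2 of its 6 h arrays or any 1 of its 20 h arrays, with 0.54 (adjusted p = 0.0350) as the lowest value. That between the treated strains was lost without any 1 of its 20 h arrays, replicate 2 or 3 of its 6 h arrays or single arrays of each other comparison, with 0.42 without replicate 3 at 6 h (adjusted p = 0.0654) as the lowest. The arrays of the 2 times lay mostly on different slides, and time and slide can be told apart only in part.

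**Figure D3:**
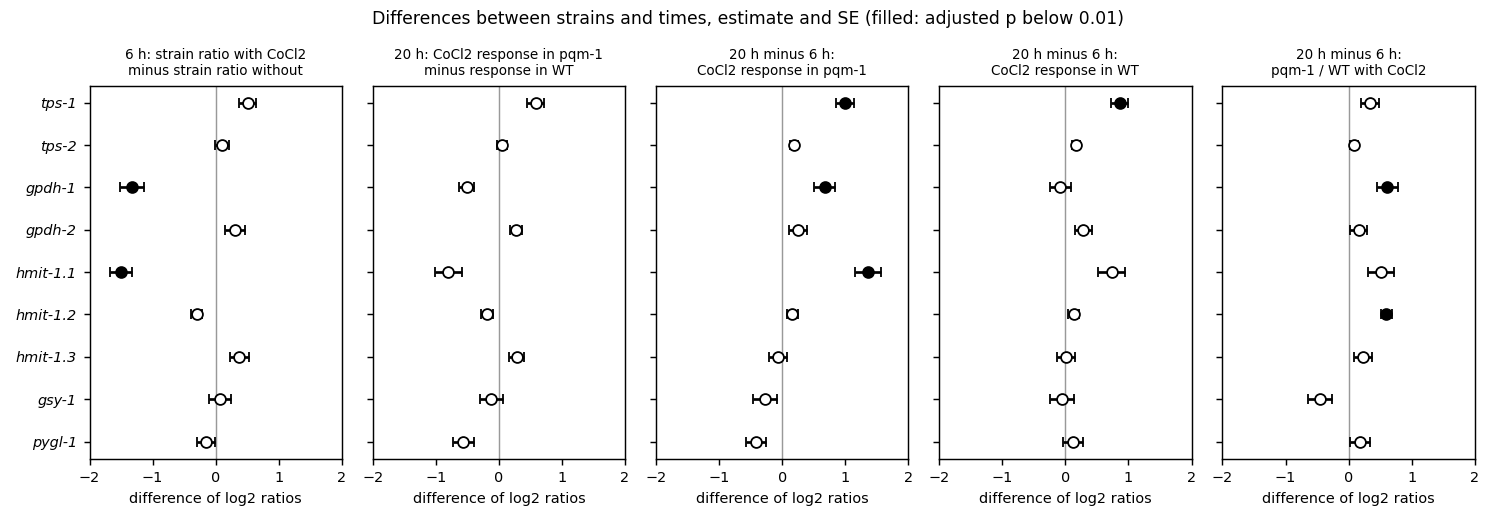
Differences between log2 ratios (x axis, estimate and SE) for the 9 genes (y axis) in the strain-by-CoCl2 tests at 6 h and 20 h and in 3 tests of 20 h minus 6 h; filled points have an adjusted p below 0.01. At 6 h *gpdh-1* (-1.33) and *hmit-1.1* (-1.50) stood to the left of the other 7 genes, and *tps-1* stood to the right of 0 in all 5 panels.

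Related genes were described from lists of 54 genes of trehalose, glycogen, glycerol, inositol and sorbitol metabolism, aquaporins, osmotic regulators and gluconeogenesis, none of which are among the 9. In CoCl2-treated *pqm-1* at 20 h, 25 of the 54 rose and 6 fell, and in CoCl2-treated *pqm-1* over CoCl2-treated WT 21 were higher and 4 lower at that time. In CoCl2-treated WT at 20 h, 15 rose and 5 fell, and at 6 h 0 rose and 2 fell. Between the untreated strains, 9 were higher and 4 lower in *pqm-1* at 6 h and 7 were higher and 0 lower at 20 h. At 6 h, 5 rose and 6 fell with CoCl2 in *pqm-1*, and 13 were higher and 2 lower in treated *pqm-1* than in treated WT. The background percentages for all genes in these comparisons are those given above.

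Among the genes that handle trehalose after its synthesis, *gob-1*, the trehalose-6-phosphate phosphatase, was higher in treated *pqm-1* than in treated WT at 6 h (0.22). The 5 trehalase genes did not move together. At 20 h *tre-5* rose with CoCl2 in *pqm-1* (0.83) and in WT (0.80), *tre-4* rose in *pqm-1* (0.77), and *tre-3* fell in WT (-0.36). Both *tre-4* (0.91) and *tre-3* (0.69) were higher in treated *pqm-1* than in treated WT at 20 h. At 6 h *tre-2* fell with CoCl2 in *pqm-1* (-0.72). Of the 11 glycogen genes, 1 rose and 4 fell with CoCl2 in *pqm-1* at 20 h. The one that rose was *gyg-1*, the glycogenin that primes new glycogen particles, with 0.95 in *pqm-1* and 0.95 in WT at that time, and it was also higher in untreated *pqm-1* than in untreated WT at 6 h (0.82) and 20 h (0.66). The alpha-glucosidase genes *aagr-1* (-0.72 in *pqm-1* and -1.39 in WT) and *aagr-2* (-0.89 in *pqm-1* and -1.01 in WT) fell with CoCl2 at 20 h, and *agl-1*, the glycogen debranching enzyme, fell in *pqm-1* (-0.48).

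In the glycerol list, the phosphatase genes that convert glycerol-3-phosphate to glycerol changed sides between the times. At 6 h *pgph-3* (-0.70) and *pgph-1* (-0.37) fell with CoCl2 in *pqm-1*, beside the fall of *gpdh-1*, and at 20 h *pgph-3* (0.82), *pgph-1* (0.40) and *pgph-2* (0.43) rose there. Treated *pqm-1* over treated WT likewise gave -0.59 for *pgph-3* and -0.50 for *pgph-1* at 6 h but 1.04 and 0.50 at 20 h. The glycerol kinase gene *R11F4.1* rose with CoCl2 in *pqm-1* at 6 h (0.63) and at 20 h in *pqm-1* (1.13) and WT (1.26). The aquaporin gene *aqp-1*, a glycerol channel of the intestine, fell with CoCl2 in *pqm-1* (-1.19 at 6 h and -0.59 at 20 h) and in WT (-1.11 and -1.18). By contrast *aqp-8* rose at 20 h in *pqm-1* (2.10) and in WT (1.76), as did *aqp-7* (0.73 in *pqm-1* and 0.94 in WT). Of the inositol list, 1 of 3 genes rose with CoCl2 in either strain at 20 h, *inos-1*, the inositol-3-phosphate synthase (0.51 in *pqm-1* and 0.47 in WT).

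The osmotic regulators include cuticle collagen and secreted protein genes whose loss raises *gpdh-1* in worms kept in normal medium. In CoCl2-treated *pqm-1* at 20 h, 8 of 11 rose and 0 fell, among them the furrow collagens *dpy-8* (1.75) and *dpy-7* (1.13), the patched-related gene *ptr-23* (1.199), *osm-8* (0.80) and *osm-11* (0.73). In WT 2 of 11 rose at that time, with *osm-11* at 0.91. Treated *pqm-1* over treated WT had 7 of 11 higher and 1 lower at 20 h, with *dpy-8* at 2.24 and *osm-8* at 1.43. Without CoCl2, 2 of 11 were higher and 1 lower in *pqm-1* than in WT at 6 h (median -0.05). At 20 h 2 were higher and 0 lower (median 0.07). The highest ratio in both was that of *dpy-8* (1.62 at 6 h and 1.12 at 20 h). A link between these genes and *gpdh-1* was not tested. The largest ratio of any listed gene was that of *adh-1* on the sorbitol list, the alcohol dehydrogenase gene that the study calls *sodh-1*, with 3.403 in *pqm-1* at 6 h and 3.99 in *pqm-1* and 2.23 in WT at 20 h. Of the gluconeogenesis genes, *icl-1*, which encodes the glyoxylate cycle enzyme of *C. elegans*, rose with CoCl2 in *pqm-1* at 6 h (0.90) and at 20 h in *pqm-1* (1.78) and WT (0.73).

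**Figure D4:**
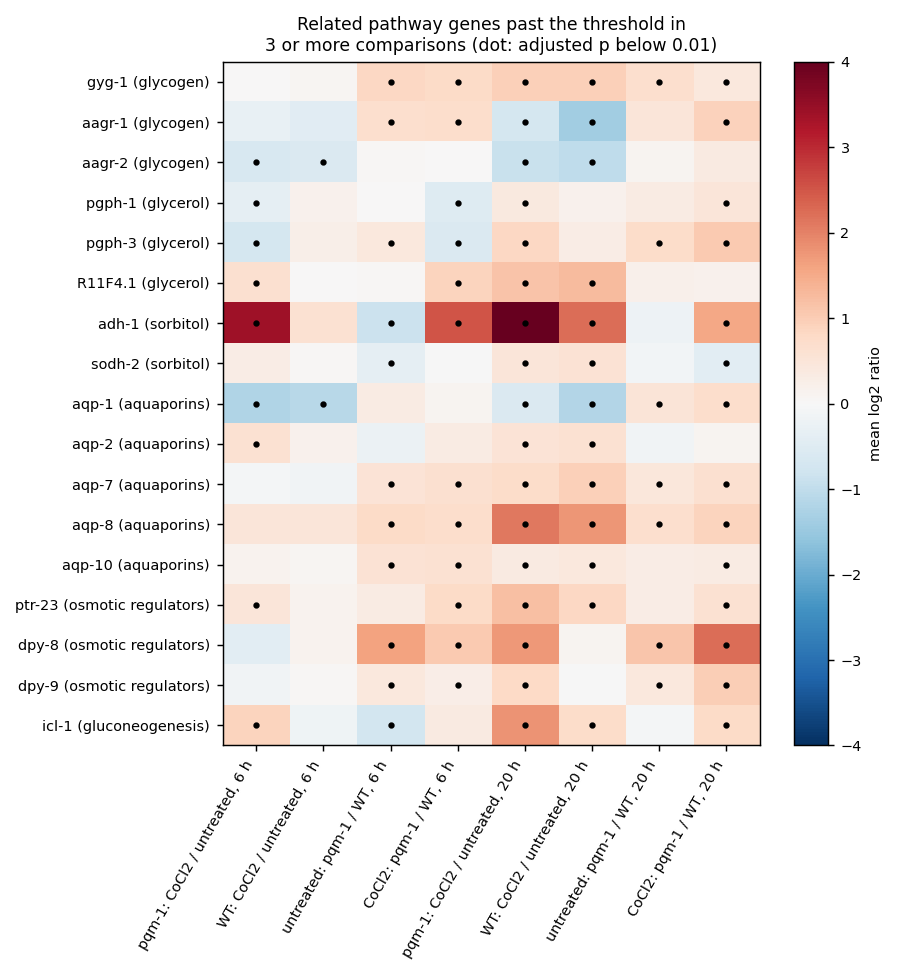
Mean log2 ratio (color, red higher and blue lower) of the 17 related genes that passed the threshold in 3 or more of the 8 comparisons (columns, numerator before denominator), with a dot where the adjusted p was below 0.01. The strongest red is *adh-1* in CoCl2-treated over untreated *pqm-1* (3.403 at 6 h and 3.99 at 20 h), and *aqp-1* is blue in both strains with CoCl2 at both times.

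Across the 24 arrays, the log2 ratios of members correlated most for *tps-1* with *gpdh-2* (Pearson r = 0.74), followed by *hmit-1.1* with *hmit-1.2* (r = 0.65). They correlated least for *hmit-1.1* with *hmit-1.3* (r = -0.71), and *gpdh-1* and *gpdh-2* gave r = -0.59. These values describe 24 arrays that share RNA conditions, slides and dye orientation, and carry no test. The genes whose ratios ran most like those of a member, among 21343 genes with a value on all arrays, were *cab-1* (r = 0.957), *gid-2* (0.954) and *dpf-6* (0.952) for *tps-1*. For *gpdh-1* they were *F42A10.7* (0.960), *srlf-1* (0.957) and *DC2.5* (0.953). The cytidine deaminase gene *cdd-1* (0.938) stood nearest to *hmit-1.1*, ahead of *K11D12.13* (0.860) and *F45E1.3* (0.859). For *pygl-1* the nearest were the acyl-CoA synthetase gene *acs-13* (0.918), the nucleoporin gene *npp-22* (0.886) and *ekl-5* (0.872).

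Yolk and oocyte genes also differed between the RNAs in which the osmolyte genes moved. All 5 vitellogenin genes tested fell with CoCl2 at 20 h, with a median of -3.09 in *pqm-1* and -2.12 in WT, and 4 of 5 were lower in untreated *pqm-1* than in untreated WT at 6 h. Of 12 oocyte and eggshell genes, 9 fell with CoCl2 in *pqm-1* at 20 h, against 12.4% of all genes, and 2 rose in WT, against 8.99%. In that *pqm-1* comparison 7 of the 9 osmolyte genes changed, 4 higher and 3 lower, against 35.2% of all genes. In treated *pqm-1* over treated WT, 7 of 12 oocyte genes were lower at 6 h, against 5.43% of all genes. At 20 h 8 of 12 were lower, against 13.6%. At 20 h without CoCl2, *gpdh-1* was 2.39-fold higher in *pqm-1*. In that comparison 0 of 5 yolk genes (median -0.33) and 0 of 12 oocyte genes passed the threshold. All 12 oocyte genes lay below 0 (-0.30 to -0.09), and 24 of 26 sperm genes were higher (median 2.35). Of all genes, 3.07% were higher and 1.26% lower there. At 6 h without CoCl2, *gpdh-1* was 2.53-fold higher. There 4 of 5 yolk genes and 1 of 12 oocyte genes (median -0.31) were lower, against 3.22% of all genes. The part of these cell types in the osmolyte values was not tested.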

How the data were processed

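RNA of whole worms was measured on 24 two-channel arrays, 3 per comparison. Per the file headers, the deposited intensity values are median pixel values of each spot and its local background, extracted by the authors with Feature Extraction 12.0.2.2 (design annotation ce6:WS190:May2008). The deposited log10 ratios were made by the same software from processed, background-subtracted and dye-normalized Cy5 over Cy3 intensity, and the authors deposited the same ratios as log2 values in a series table (within 0.0005 of the scanner ratio). Everything above was computed from the median intensities. Background was corrected by normexp with an offset of 50, log2 ratios were normalized by loess within arrays, control spots had no weight and outlier spots were left out, while saturated spots (0 to 996 probes per array) were kept. The offset draws ratios of dim probes toward 0. Spots were averaged per probe and probes per gene. Of 43603 probes, 34515 were matched to a RefSeq gene. A probe was used at a time if all 3 arrays of some comparison had it above background in Cy3 or Cy5, and a gene was tested with values on at least 2 arrays of each comparison (22067 genes at 6 h and 23058 at 20 h).

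The 12 arrays of a time were fitted with limma 3.58.1 in R 4.3.3 with 1 mean per comparison and 8 residual degrees of freedom, and times were compared in a fit of 24 arrays. Adjusted p-values are Benjamini-Hochberg values over all genes tested, with a threshold of 0.01, taken from the false discovery rate of the study. The study's methods name 3 biological replicates for the strain comparisons, and the labels number 3 arrays in every comparison. Where arrays were not separate cultures, the p-values measure technical spread. Labels with 1b were taken as replicate 1. Which RNA lay in which dye was read from the strain and treatment labels. On 11 arrays the source names place them the other way round, whereas the series table follows the labels used here on all 24. For the second replicate of the *pqm-1* CoCl2 response at 6 h, the Cy3 source name reads N2 with CoCl2, and the strain and treatment labels were used. The number of arrays limits the precision.

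The genes and lists were chosen with earlier results of these data known. Named are all 9 genes, listed pathway genes past the threshold in at least 1 comparison, the 3 genes most correlated with the leading member of each role, and markers. The analysis was tested on simulated data. The alternatives are given at the end. Promoter and protein sequences were not analysed here.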

Additional observations from a re-analysis of the deposited data

Results flagged for a closer look

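The CoCl2 effect differed between the strains, by a test of the difference itself, for *gpdh-1* (-1.33, limma adjusted p = 0.00130) and *hmit-1.1* (-1.50, adjusted p = 0.000412) at 6 h, calls that median centering ended. The same comparison differed between 20 h and 6 h for 6 values in the fit of 24 arrays. These were *tps-1* (1.00, adjusted p = 1.79e-05), *gpdh-1* (0.68, adjusted p = 0.00441) and *hmit-1.1* (1.36, adjusted p = 4.47e-05) with CoCl2 in *pqm-1*, *tps-1* with CoCl2 in WT (0.86, adjusted p = 0.000278), and *gpdh-1* (0.61, adjusted p = 0.00844) and *hmit-1.2* (0.60, adjusted p = 4.32e-05) between the treated strains.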

How the results depend on the processing

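Of the 29 gene values past the threshold, 17 passed in every fit with 1 array left out; the other 12 were named above or were *tps-2* values (untreated strains at 6 h, 0.40 without replicate 1, adjusted p = 0.0128 from limma; treated strains at 20 h, 0.26 without replicate 1, adjusted p = 0.0110; CoCl2 in *pqm-1* at 20 h, 0.19 to 0.23 without any 1 of its arrays). No direction turned when 1 array was left out. Median centering instead of loess kept 13 of the 29 and lost both 6 h strain-by-CoCl2 differences, and calls among all genes fell too (288 against 937 in WT with CoCl2 at 6 h). The directions of the source names turned *gpdh-1* (0.59) and *tps-1* (-0.26) with CoCl2 in *pqm-1* at 6 h. Between the treated strains at 6 h they turned *hmit-1.1* (0.14), *hmit-1.2* (0.20), *hmit-1.3* (-0.32), *pygl-1* (0.19), *tps-1* (-0.037) and *tps-2* (-0.25), and at 20 h *gpdh-1* (-0.29), *gpdh-2* (-0.23), *hmit-1.3* (-0.33), *tps-1* (-0.37) and *tps-2* (-0.16). They left 0 of all genes past the threshold in each of the 8 comparisons, and 0 osmolyte genes. The scanner ratios and the series table gave -0.036 for *tps-2* with CoCl2 in *pqm-1* at 20 h.

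Counts of osmolyte genes past the threshold moved as follows, with the cause not tested. The share of all genes past the threshold under each setting is not given beside them. The counts are thus not read as particular to the osmolyte genes. In *pqm-1* with CoCl2 at 6 h (2 genes), 1 passed with no offset, median centering, only the arrays compared or SAM, and 4 with a dye term or the slide as a fixed block. In WT with CoCl2 at 6 h (2), 1 passed with median centering, the scanner ratios or the series table. Between the untreated strains at 6 h (3), 5 passed at an adjusted p below 0.05, with the slide as a random block or in the loop model, and 1 with median centering, only the arrays compared or SAM. Between the treated strains at 6 h (6), 1 passed with median centering. For the strain-by-CoCl2 difference at 6 h (2), 0 passed with median centering, 4 in the loop model and 1 with only the arrays compared. In *pqm-1* at 20 h (7), 3 passed with median centering and 4 with only the arrays compared. In WT at 20 h (3), 5 passed below 0.05. Between the untreated strains at 20 h (1), 2 passed with no offset, the scanner ratios, the series table, a dye term, the slide as a random block, SAM or each probe on its own, and 3 below 0.05, with the strict filter, in the loop model or with only the arrays compared. Between the treated strains at 20 h (5), 3 passed with no offset, median centering, the scanner ratios or the series table. For the difference at 20 h (0), 4 passed below 0.05 or in the loop model, 2 with the scanner ratios or the series table, 1 with no offset, a dye term or the slide as a random block, and 3 in the other pair. Between times, the *pqm-1* count (3) was 1 with median centering, the WT count (1) was 2 with no offset and 0 with median centering, and that between the treated strains (2) was 1 with no offset or median centering. With 1 array left out, the counts ranged from 1 to 2, 1 to 2, 1 to 3 and 4 to 6 in the 4 comparisons at 6 h in the order above, from 4 to 7, 3 to 4, 1 to 3 and 3 to 5 at 20 h, stayed at 2 for the difference at 6 h and ranged from 0 to 1 at 20 h, and from 2 to 3, 1 to 2, 0 to 0 and 1 to 2 between times.

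The replicate numbers did not meet the rule for pairing, a correlation of deviations over 0.1 in every same-numbered pair, which held in 6 of 18 pairs at 6 h and 7 of 18 at 20 h. The rule cannot decide pairing, because comparisons that share an RNA on opposite sides of the ratio would correlate negatively if extracts were shared. At 6 h the correlations went with dye orientation: all 6 pairs of the same orientation were over 0.1 (0.22 to 0.41) and 11 of 12 of opposite orientation below -0.1. Those 6 pairs were also the ones that share a condition on the same side of the ratio. Dye orientation and shared RNA thus cannot be told apart there. With the replicate number as a block, *hmit-1.3* between the treated strains at 6 h (adjusted p = 0.0207), *tps-2* in *pqm-1* (0.0131) and *gpdh-2* between the treated strains at 20 h (0.0109) were lost, *hmit-1.1* passed between the untreated strains (0.00350, for 2 genes in all) and in the 20 h difference (0.00334, 1 gene). All 39 within-slide values of the called genes had the sign of the mean. These values are parts of the same means. Where 1 slide held all 3 arrays of a comparison the sign could not differ, so the count does not test the slide. The correlation of arrays on the same slide was estimated at 0.45 at 6 h and 0.20 at 20 h. Dim probes limit *tps-2*.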
